A study of Mus musculus with 12 samples.

Results

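The LPS response of Socs1 knockout macrophages was measured in 4 of the 12 libraries of the series: 2 of Socs1-/- cells given lipopolysaccharide (LPS, from the outer membrane of Gram-negative bacteria) at 100 ng/ml for 3 h, called library 1 and library 2 after their replicate numbers, and 2 of untreated Socs1-/- cells. They were chosen by the columns of the count table for this knockout, and all 12771 genes with enough reads were followed, of 54232 in the table. The other groups used here, again with 2 libraries each, were Ing4-/- cells with LPS, Ing4-/- cells untreated, wild-type (WT) cells with LPS and WT cells untreated. All cells were RAW264.7, a transformed mouse macrophage line. How Socs1 was disrupted, whether 1 clone or several were used and whether the paired libraries came from separate cultures is not stated in the labels, so the p-values rest on the spread between these libraries, which may be technical.

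LPS is sensed by Toll-like receptor 4 (TLR4), which acts through the adaptors MyD88 and TRIF. MAP kinases and the transcription factor NF-kB switch on a first set of genes: immediate early transcription factors, inhibitors that end the signal, chemokines and cytokines such as TNF. TRIF also leads through IRF3 to interferon beta, which is secreted, binds its receptor and switches on antiviral genes through JAK kinases and STAT proteins. Socs1 is an inhibitor of JAK kinases that is itself switched on by cytokine signalling.

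Promoters of 5 genes that hold a motif of their class are shown as examples: an immediate early gene high in library 1 (Egr2), a chemokine and an NF-kB inhibitor raised in both (Cxcl2, Nfkbia), and antiviral genes high in library 2 (Ifit1, Isg15). Each is 250 bases before to 50 after a gene start (RefSeq, GRCm38.p6), read along the gene. Capitals mark a CArG box (the serum response factor motif, CC, then 6 A or T, then GG) in Egr2, the NF-kB motif (GGGA and TTCC with 2 bases between) in Cxcl2 and Nfkbia, and the interferon-stimulated response element (TTTC and TTTC with 2 bases between) in Ifit1 and Isg15, each on either strand. Overlapping matches were joined. Promoters of other genes of these classes held no match, among them Fosb and Nr4a1 (CArG box) and Tnfaip3 and Zc3h12a (NF-kB), and 1 of the starts of Egr2 held none. Egr2, Isg15, Tnfaip3, Zc3h12a and Rsad2 were chosen after their values were seen.
Egr2, chr10:67537619-67537918, plus strand, 1 of the starts listed: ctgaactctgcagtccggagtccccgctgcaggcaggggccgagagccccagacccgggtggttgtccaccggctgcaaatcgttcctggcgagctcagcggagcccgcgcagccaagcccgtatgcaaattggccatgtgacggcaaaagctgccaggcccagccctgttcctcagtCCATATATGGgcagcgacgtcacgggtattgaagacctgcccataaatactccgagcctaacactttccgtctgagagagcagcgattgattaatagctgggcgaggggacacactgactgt
Cxcl2, chr5:90903649-90903948, plus strand: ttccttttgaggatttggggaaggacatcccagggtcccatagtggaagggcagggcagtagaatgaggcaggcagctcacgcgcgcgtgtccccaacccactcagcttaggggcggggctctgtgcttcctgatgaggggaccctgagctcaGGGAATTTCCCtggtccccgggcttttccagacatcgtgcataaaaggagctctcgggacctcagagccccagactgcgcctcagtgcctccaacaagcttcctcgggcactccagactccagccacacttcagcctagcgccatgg
Nfkbia, chr12:55492598-55492897, minus strand: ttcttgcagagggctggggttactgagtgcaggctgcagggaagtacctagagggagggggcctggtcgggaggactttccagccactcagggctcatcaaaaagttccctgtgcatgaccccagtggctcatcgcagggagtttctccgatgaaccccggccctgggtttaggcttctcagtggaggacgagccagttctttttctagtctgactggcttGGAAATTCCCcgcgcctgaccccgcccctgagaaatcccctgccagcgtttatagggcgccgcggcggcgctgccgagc
Ifit1, chr19:34640639-34640938, plus strand: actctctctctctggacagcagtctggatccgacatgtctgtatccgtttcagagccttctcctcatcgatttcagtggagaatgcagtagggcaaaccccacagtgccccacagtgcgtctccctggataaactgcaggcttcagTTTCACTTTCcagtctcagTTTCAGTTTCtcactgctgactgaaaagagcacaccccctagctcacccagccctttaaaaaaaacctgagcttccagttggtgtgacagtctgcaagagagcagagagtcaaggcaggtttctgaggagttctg
Isg15, chr4:156200769-156201068, minus strand: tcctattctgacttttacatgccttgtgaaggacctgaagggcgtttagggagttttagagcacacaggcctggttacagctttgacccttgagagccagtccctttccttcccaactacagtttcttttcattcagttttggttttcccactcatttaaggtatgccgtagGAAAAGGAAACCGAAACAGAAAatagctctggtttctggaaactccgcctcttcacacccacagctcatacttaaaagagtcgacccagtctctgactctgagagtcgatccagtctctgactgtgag

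The LPS-treated Socs1-/- libraries held 24377950 counts (library 1) and 20158110 counts (library 2), against 20388067 and 17250815 counts in the untreated pair. Over log2 CPM (counts scaled by library size) library 1 correlated at 0.971 and 0.946 with the untreated Socs1-/- libraries 1 and 2 and at 0.926 with library 2. Library 2 correlated at 0.895 and 0.921 with the untreated pair and at 0.960 to 0.977 with the LPS-treated WT and Ing4-/- libraries. On the first principal component, 54.4% of the variance, library 1 stood at -16.2 and library 2 at 74.4, against -66.1 and -52.9 for the untreated pair. The LPS-treated WT and Ing4-/- libraries stood between 62.4 and 71.1. The deviation of the pair beyond counting noise was 286.8 chi-square per degree of freedom, against 33.59 to 111.3 for the other groups. Library 1 stands apart from its replicate, so each result below is given for each library. The 12 macrophage markers summed to 15700 CPM in library 1 and 16600 CPM in library 2, against 14700 and 15000 CPM in the untreated pair. Markers of T, B and NK cells summed to at most 0.348 CPM in any library. The mitochondrial share of counts was 0.829% in library 1 and 0.809% in library 2, against 1.08% and 0.992% untreated.

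Socs1 itself was at 2.73 CPM in library 1 and 7.14 CPM in library 2, against 0.304 and 0.349 CPM untreated. LPS-treated WT cells had 9.08 CPM in both libraries. Reads were counted over the whole gene, so this level does not check which part was disrupted. Both rises passed the test, by 3.05 ± 0.46 in library 1 and 4.43 ± 0.46 in library 2 on the log2 scale (± SE; adjusted p = 0.0114 and 0.00053, edgeR quasi-likelihood test with Benjamini-Hochberg adjustment). In that fit each treated library has its own mean, and a lone library is taken to vary as the other groups do.

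Library 1 answered LPS in a small set of genes. In library 1, 200 genes rose and 52 fell at an adjusted p of 0.05 (1.57% and 0.407% of all tested), while in library 2 1192 rose and 915 fell (9.33% and 7.16%). Compared directly, 409 genes were higher and 480 lower in library 1 than in library 2 (3.20% and 3.76% of all tested). With both treated libraries averaged as 1 group, 201 genes rose and 52 fell (1.57% and 0.407%), and without library 1 the same fit gave 1197 and 893. In a fit to the 4 Socs1-/- libraries only, edgeR called 0 genes either way, although 585 rises and 339 falls had an unadjusted p below 0.05. With upper-quartile scaling, which moved the median of all genes by -0.17 on the log2 scale in library 2, its split was 928 up and 1374 down. Without the untreated libraries in turn, library 1 rises numbered 186 (without replicate 1) and 118 (without replicate 2), and falls 151 and 14. In library 2 they numbered 712 and 514 without untreated replicate 1. The falls of library 1 numbered 26 without WT untreated replicate 1 and 28 without WT untreated replicate 2, and the genes higher in library 1 than in library 2 numbered 236 and 247. Past 2-fold over the untreated mean (pseudocount 0.5 CPM, no test), library 1 had 435 genes up and 482 down, and library 2 1154 up and 1072 down.

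How much of the common LPS response each library held was read from genes called in WT cells, in a fit that left out all Socs1-/- libraries. There, 1050 genes rose and 872 fell (8.38% and 6.96% of 12529 tested). Without WT untreated replicate 1 the counts were 489 and 276, without WT untreated replicate 2 508 and 326, and without WT LPS replicate 2 622 and 307. Without WT LPS replicate 1 they were 836 and 430. Of the 1050 raised genes, 255 were past 2-fold in library 1 (24.3%) and 808 in library 2 (77.0%), against backgrounds of 3.41% and 9.04% of all genes. The Ing4-/- libraries, which shared the scaling and spread of that fit but not the contrast, had 789 (75.1%) and 774 (73.7%), with 8.08% and 9.37% of all genes. The median log2 change of the raised genes was 0.32 in library 1 and 1.63 in library 2, and 1.55 and 1.64 in the Ing4-/- pair. In library 1, 278 of them were below their untreated level (26.5%), and in library 2, 7. With the WT genes called anew without each WT or Ing4-/- library in turn, 24.3% to 37.2% of the raised genes were past 2-fold in library 1 and 74.6% to 93.1% in library 2. Compared directly, 390 of the 1050 were lower in library 1 than in library 2 (37.1%) and 7 higher.

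The share of genes past 2-fold in library 1 was larger where the WT response was larger. A fixed 2-fold cut is easier to pass for such genes, so the shares do not measure how much of the response was kept. Of the 267 genes raised by less than 1 on the log2 scale in WT, 6.74% were past 2-fold in library 1 and 37.5% in library 2. Of the 320 raised by 1 to 2, the shares were 15.0% and 87.5%. Of the 288 raised by 2 to 4, they were 36.8% and 93.1%. Of the 175 raised by more than 4, 47.4% were past 2-fold in library 1 and 91.4% in library 2. In no size class did library 1 reach the share of library 2 or of an Ing4-/- library. From the smallest to the largest class, the median log2 change was 0.265, 0.223, 0.479 and 0.795 in library 1. In library 2 it was 0.884, 1.52, 2.8 and 4.02.

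**Figure D1:**
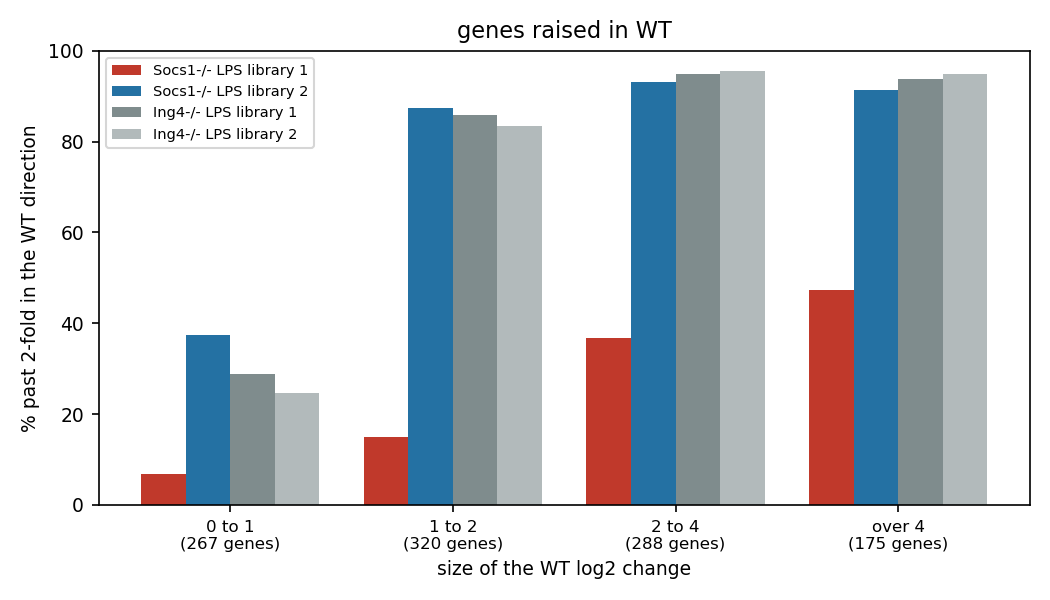
Share of the genes raised in WT that were past 2-fold over the untreated mean (y axis, %) in each Socs1-/- and Ing4-/- LPS library, by the size of the WT log2 change (x axis, with gene numbers). Library 1 reaches 6.74% to 47.4%, library 2 37.5% to 93.1%.

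The falls of the WT response were also seen less in library 1 than in library 2. Of the 872 genes lowered in WT, 114 were past 2-fold down in library 1 (13.1%) and 524 in library 2 (60.1%), against 3.77% and 8.39% of all genes. The Ing4-/- pair had 526 and 446 (60.3% and 51.1%, with 8.92% and 5.63% of all genes). Their median log2 change was -0.26 in library 1 and -1.17 in library 2. Compared directly, 305 of the 872 were higher in library 1 than in library 2 (35.0%) and 0 lower by edgeR.

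**Figure D2:**
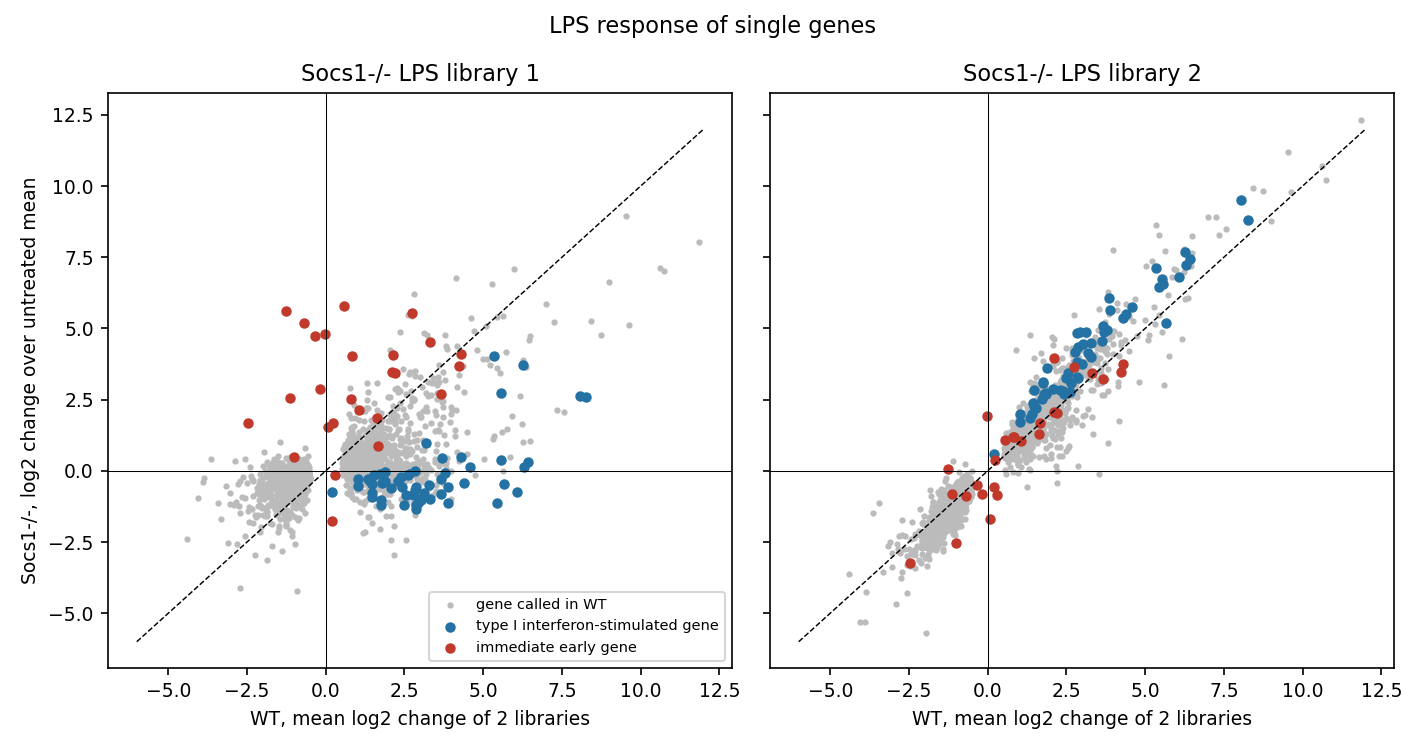
Log2 change of each Socs1-/- LPS library over its untreated mean (y axis) against the mean log2 change of the 2 WT LPS libraries (x axis). Grey points are genes called in WT, blue points the 57 type I interferon-stimulated genes and red points the 26 immediate early genes; the dashed line marks equal change. The blue points have a median of -0.42 in library 1 and 4.01 in library 2, the red points 3.16 and 1.13.

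Immediate early transcription factors, the genes that cells switch on first after a stimulus, stood higher in library 1 than in library 2. The median change of 26 such genes was 3.16 in library 1 and 1.13 in library 2, and 0.84 to 1.32 in the WT and Ing4-/- libraries, against a median near 0 over all genes (0.00 in library 1, -0.01 in library 2). In library 1, 15 rose and 0 fell, and in library 2, 10 rose and 2 fell. Compared directly, 7 were higher in library 1 and 0 lower. Of all tested genes, 1.57% rose and 0.407% fell in library 1, and 9.33% and 7.16% in library 2. Between the libraries, 3.2% were higher and 3.76% lower in library 1. These shares are the background for the counts of this list and of each list below.

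Fosb, an AP-1 subunit, was at 22.5 CPM in library 1 and 0.113 CPM (2 counts) in library 2, against 0.477 and 0.249 CPM untreated. Library 1 alone was above the untreated pair, and it held 200-fold the level of library 2 (exact binomial 95% interval 55.2 to 1660). Nr4a1, an orphan nuclear receptor, was at 158 CPM in library 1 and 1.86 CPM in library 2, against 5.33 and 2.34 CPM untreated. Egr2, a zinc-finger factor, was at 209.6 CPM and 7.53 CPM, against 5.42 and 1.20 CPM untreated. Egr3, a related factor, was at 234.6 CPM and 4.44 CPM, against 6.33 and 2.19 CPM. In library 2, Nr4a1 was below the untreated pair, Egr3 within it and Egr2 above it without passing the test (edgeR adjusted p = 0.367). The differences of library 1 from library 2 were 6.41 ± 1.03 for Nr4a1, 4.80 ± 1.01 for Egr2 and 5.72 ± 1.20 for Egr3 on the log2 scale (± SE; edgeR adjusted p = 0.0149, 0.0314 and 0.0316). Klf4, a Kruppel-like factor, was at 37.3 CPM in library 1 and 0.731 CPM in library 2, against 14.3 and 8.11 CPM untreated. It fell in library 2 (-3.93 ± 0.81, edgeR adjusted p = 0.0132), and its change in library 1 did not pass (1.73 ± 0.57, adjusted p = 0.243).

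Ier3, a stress-inducible early gene, was at 206.7 CPM in library 1 and 176 CPM in library 2, against 13.6 and 17.4 CPM untreated. Atf3, a stress-induced repressor, was at 245.6 and 352 CPM, against 27.9 and 46.5 CPM. Both genes rose in each library, and the differences between the libraries were 0.23 ± 0.38 and -0.52 ± 0.53 on the log2 scale (± SE; edgeR adjusted p = 0.764 and 0.604). Ier3 and Atf3 were picked as members called in both libraries with the smallest difference, so their closeness was set by the choice. Maff, a small Maf factor, was at 74.3 CPM in library 1 and 19.8 CPM in library 2, against 1.30 and 0.946 CPM untreated. It rose in both and was 1.91 ± 0.33 higher in library 1 (edgeR adjusted p = 0.0152).

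In all, 24 genes both rose in library 1 and were higher there than in library 2 (0.188% of all tested), and 7 of them were among those raised in WT. Maff is among the 24, while Klf4, Ier3 and Atf3 are not. They also include, named after their values were seen, Errfi1, Arc, Kdm6b and Dnajb1. Errfi1, a feedback inhibitor of the EGF receptor, was at 984 CPM in library 1 and 43.1 CPM in library 2, against 11.9 and 13.4 CPM untreated. Arc, an immediate early gene best known from neurons, was at 87.3 and 4.16 CPM, against 2.21 and 2.49 CPM. Kdm6b, a histone H3K27 demethylase, was at 591 and 143.5 CPM, against 19.9 and 19.2 CPM. Dnajb1, an Hsp40 chaperone, was at 200.3 CPM in library 1 and 39.6 CPM in library 2, against 44.1 and 44.8 CPM. All 4 were higher in library 1 than in both untreated libraries, and Dnajb1 was the single gene called in library 1 among 12 heat shock and RNA quality genes.

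**Figure D3:**
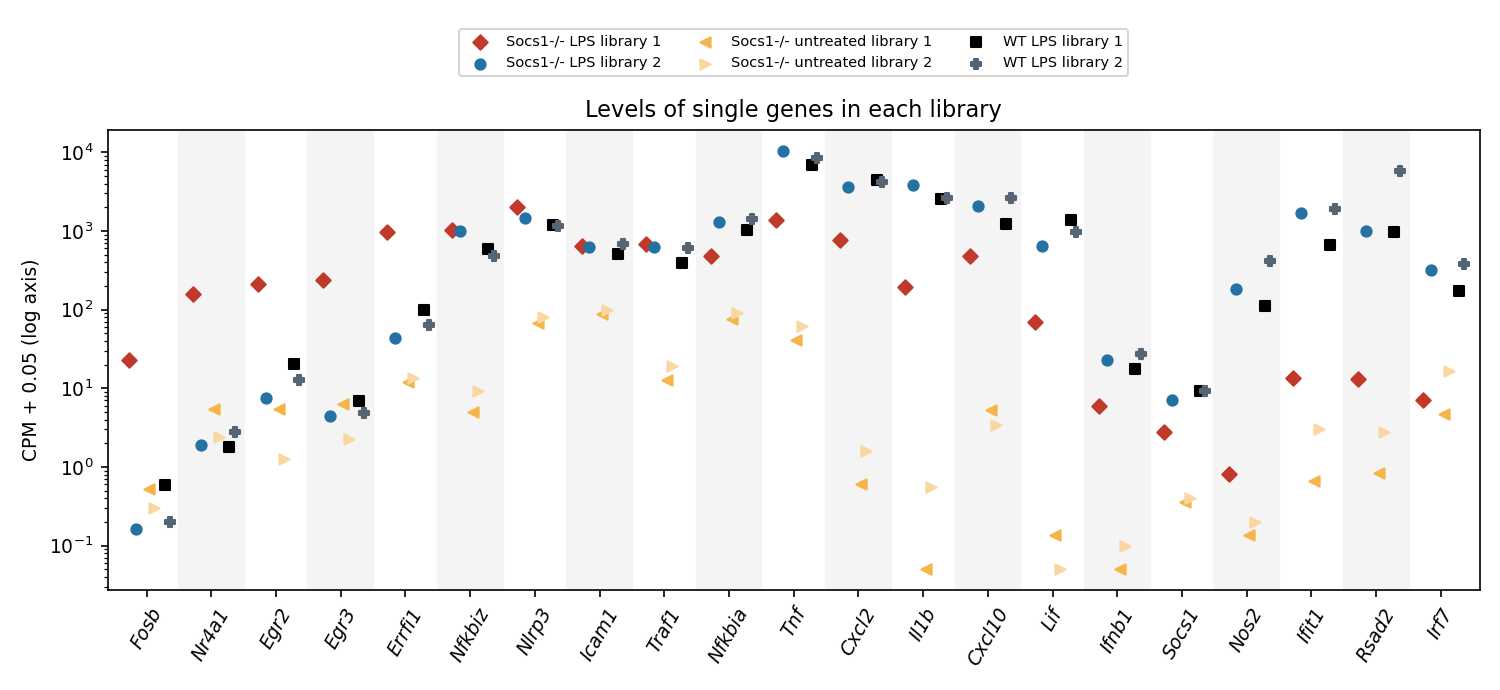
CPM plus 0.05 (log axis) of 21 genes in the LPS-treated and untreated Socs1-/- libraries and the LPS-treated WT libraries, 1 point per library. Fosb to Errfi1 are higher in library 1. Nfkbiz to Traf1 are near the same in both, but were picked for a small difference between the libraries. Nos2, Ifit1 and Rsad2 in library 1 lie above the untreated pair but below library 2, with Irf7 inside the untreated range.

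NF-kB subunits and their inhibitors kept their response. Of 11 members, 8 rose in library 1 and 10 in library 2, with medians of 1.95 and 2.45, and all 10 members raised in WT were past 2-fold in each. Nfkbiz, an atypical nuclear IkB protein, was at 1016 CPM in library 1 and 1000 CPM in library 2, against 4.90 and 9.16 CPM untreated. Rel, the c-Rel subunit, was at 402 and 457 CPM, against 59.3 and 73.8 CPM. The libraries differed by 0.02 ± 0.46 for Nfkbiz and -0.18 ± 0.24 for Rel on the log2 scale (± SE; edgeR adjusted p = 0.988 and 0.701). Nfkbiz and Rel were picked as members called in both libraries with the smallest difference. Their closeness was thus set by the choice and says nothing about the list. Nfkbia, the inhibitor IkB alpha, was at 475.8 CPM in library 1 and 1307 CPM in library 2, against 75.6 and 90.2 CPM untreated. It rose in both, and the difference between them did not pass (-1.46 ± 0.38, edgeR adjusted p = 0.0527). A pair of members did differ and went opposite ways. Rela, the p65 subunit, was at 158.8 CPM in library 1 and 79.7 CPM in library 2, against 59.6 and 59.2 CPM untreated. Nfkb1, the p105 precursor of p50, was at 341 and 1223 CPM, against 164 and 173 CPM.

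Of 28 negative regulators of TLR signalling, 13 rose in library 1 and 18 in library 2 (medians 1.15 and 2.34), and 13 of the 16 raised in WT were past 2-fold in library 1. Compared directly, 6 of the 28 were lower in library 1 and 1 higher. Zc3h12c, a Regnase family protein, was at 291 CPM in library 1 and 304 CPM in library 2, against 31.7 and 22.3 CPM untreated. Tnfaip3, the ubiquitin-editing enzyme A20, was at 407 and 887 CPM, against 8.11 and 18.0 CPM. Peli1, an E3 ligase, was at 134 CPM in library 1 and 910 CPM in library 2, against 29.2 and 31.0 CPM, and was lower in library 1 by -2.76 ± 0.23 (edgeR adjusted p = 0.00174). Among 16 survival and TRAF genes, 8 rose in library 1 and 11 in library 2 (medians 1.22 and 2.43), and 4 were lower and 1 higher in library 1. Traf1, a TNF receptor adaptor, was at 679 and 633 CPM, against 12.7 and 19.4 CPM, and Cflar, a caspase-8 inhibitor, at 512 and 559 CPM, against 66.1 and 92.6 CPM. Bcl2l1 (Bcl-xL) was at 44.4 CPM in library 1 and 266.7 CPM in library 2, against 49.4 and 30.8 CPM, so it was inside the untreated range in library 1. Bmf, a pro-apoptotic BH3 protein, fell in both: it was at 0.693 and 0.956 CPM, against 8.54 and 8.76 CPM. Nlrp3, the inflammasome sensor, was at 2021 and 1474 CPM, against 68.4 and 80.3 CPM, and Icam1, an adhesion molecule, at 647.7 and 632 CPM, against 87.5 and 98.8 CPM. For Traf1, Cflar, Bmf, Nlrp3 and Icam1 the difference between the libraries did not pass (edgeR adjusted p = 0.349 to 0.970). Zc3h12c, Traf1, Cflar, Nlrp3 and Icam1 were picked as members called in both libraries with the smallest difference. Their closeness was thus set by the choice and says nothing about their lists.

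Part of the cytokines and chemokines rose in library 1. Of 22 cytokines, 11 rose in library 1 and 18 in library 2 (medians 2.28 and 3.52), and 7 were lower in library 1. Of 20 chemokines, 8 rose in library 1 and 15 in library 2 (medians 1.73 and 4.17), and 7 were lower in library 1. Of the members raised in WT, 14 of 19 cytokines and 12 of 16 chemokines were past 2-fold in library 1, against 19 and 14 in library 2.

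Tnf was at 1381 CPM in library 1 and 10530.3 CPM in library 2, against 41.2 and 61.7 CPM untreated. It rose by 4.75 ± 0.47 in library 1 and 7.68 ± 0.52 in library 2 on the log2 scale, and was lower in library 1 by -2.93 ± 0.57 (± SE; edgeR adjusted p = 0.00116, 7.17e-05 and 0.0203). Il1b, the inflammasome substrate, was at 196 CPM in library 1 and 3865 CPM in library 2, against 0 and 0.498 CPM. The T cell and macrophage attractant Ccl3 was at 911 and 11351.5 CPM, against 75.8 and 62.0 CPM. For these 3 genes the order was the same, with library 1 between the untreated pair and library 2. Cxcl2, a neutrophil attractant, was at 758 and 3666 CPM, against 0.564 and 1.54 CPM, and Cxcl10, a chemokine that NF-kB and interferon both switch on, at 478 and 2105 CPM, against 5.29 and 3.34 CPM. Both rose in each library, and their differences between the libraries did not pass (-2.27 ± 0.72 and -2.14 ± 0.71, edgeR adjusted p = 0.0974 and 0.112). Some cytokines were level: Tnfsf9 (4-1BB ligand) was at 212 and 217 CPM, against 29.8 and 27.9 CPM, and Osm at 41.0 and 48.2 CPM, against 3.60 and 4.98 CPM. Both were picked for a small difference between the libraries and do not stand for the list.

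Ifnb1, the gene of interferon beta, was at 5.91 CPM (145 counts) in library 1 and 22.7 CPM (403 counts) in library 2, against 1 count in the untreated pair. This was 255-fold in library 1 (exact binomial 95% interval 45.0 to 10100) and 978-fold in library 2 (174 to 38700), with LPS-treated WT cells at 17.7 and 27.2 CPM. The difference between the libraries did not pass (edgeR adjusted p = 0.0995).

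Few genes downstream of interferon rose in library 1. Of 57 type I interferon-stimulated antiviral genes, 2 rose in library 1 (Ifih1 and Oasl1), 56 rose in library 2, and 52 were lower in library 1 than in library 2. The median change was -0.42 in library 1 and 4.01 in library 2, and 2.41 to 3.60 in the WT and Ing4-/- libraries. Of the 55 raised in WT, 5 were past 2-fold in library 1 and 55 in library 2 and in each Ing4-/- library. The untreated pair differed in these genes, with a median log2 difference of -0.84 between untreated libraries 1 and 2. Over untreated library 1 alone the library 1 median was 0.06, over untreated library 2 alone -0.79, and the library 2 medians were 4.59 and 3.54.

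Ifit1, an RNA-binding antiviral protein, was at 13.6 CPM in library 1 and 1686 CPM in library 2, against 0.607 and 2.99 CPM untreated. It stood above both untreated libraries in library 1, but that change did not pass (2.94 ± 0.89, edgeR adjusted p = 0.211), and it was lower than in library 2 by -6.96 ± 1.23 (adjusted p = 0.0189). Isg15, a ubiquitin-like modifier, was at 31.4 and 498 CPM, against 1.08 and 2.79 CPM, and neither its change in library 1 nor its difference from library 2 passed (edgeR adjusted p = 0.0568 and 0.0514). Irf7, an amplifier of interferon transcription, was at 6.97 CPM in library 1 and 316 CPM in library 2, against 4.64 and 16.7 CPM. Stat2, a transcription factor of the interferon pathway, was at 11.7 and 265 CPM, against 21.6 and 33.0 CPM. Irf9, its DNA-binding partner, was at 16.1 and 136.7 CPM, against 19.4 and 35.9 CPM. In library 1, Irf7 was inside the untreated range, and Stat2 and Irf9 were below both untreated libraries without passing the test (edgeR adjusted p = 0.345 and 0.525). Ifih1 (MDA5, an RNA sensor), 1 of the 2 members that rose, was at 62.1 CPM in library 1 and 1007 CPM in library 2, against 6.68 and 11.3 CPM.

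Other lists of the interferon and JAK-STAT pathways are given next. Of 12 interferon-inducible GBP and IRG GTPases, which attack vacuoles holding pathogens, 0 rose in library 1 and 10 rose in library 2 by edgeR (medians 0.00 and 4.58), and 10 were lower in library 1 than in library 2. Irgm1 was at 21.5 CPM in library 1 and 1039 CPM in library 2, against 22.1 and 56.7 CPM. Of 22 genes of MHC class I and peptide loading, 0 rose in library 1 and 6 in library 2, against 1.57% and 9.33% of all tested genes. Compared directly, 1 of the 22 was lower in library 1, against 3.76% of all tested genes. The rises in library 1 and this comparison do not set the MHC list apart from all genes. At an unadjusted p below 0.05, edgeR put 2 members of the GTPase list and 2 of the MHC list above untreated in library 1. Among 33 JAK-STAT and SOCS genes, 5 rose and 0 fell in library 1, 12 rose and 4 fell in library 2, and 4 were lower and 1 higher in library 1 than in library 2. Socs3, another JAK inhibitor, was at 179 CPM in library 1 and 787 CPM in library 2, against 10.7 and 12.5 CPM, and Pim1, a STAT-regulated kinase, at 254 and 341.5 CPM, against 15.5 and 8.02 CPM.

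Secondary response genes, which need newly made protein or chromatin remodelling, were mostly lower in library 1 than in library 2. Of 15, 2 rose in library 1 and 11 in library 2, and 10 were lower in library 1. The median change was 1.04 in library 1 and 6.30 in library 2. Of the 12 raised in WT, 7 were past 2-fold in library 1 and 11 in library 2. Il6 was at 4 counts in library 1 and 1302 counts in library 2, against 0 counts untreated. With a floor of 3 counts set for the untreated pair this is 2.34-fold and 1050-fold. These folds leave out the counting error of the treated library, which is large at 4 counts. Nos2, the inducible nitric oxide synthase, was at 0.774 CPM in library 1 and 185 CPM in library 2, against 0.0867 and 0.149 CPM, and Lcn2, a siderophore-binding protein, at 0.163 and 42.2 CPM, against 0.0867 and 0 CPM. Csf3 and Ccl5 rose in library 1 too: Csf3 was at 17.9 and 464 CPM, against 0 and 0.0498 CPM, and Ccl5 at 34.4 and 1151 CPM, against 0.347 and 1.20 CPM. Il10 was at 1.59 and 1.46 CPM, against 1 count in the untreated pair, and did not pass in either library (edgeR adjusted p = 0.299 and 0.105). Acod1, which makes itaconate, was at 993.5 CPM in library 1 and 8339.96 CPM in library 2, against 14.7 and 18.6 CPM, and rose in both.

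**Figure D4:**
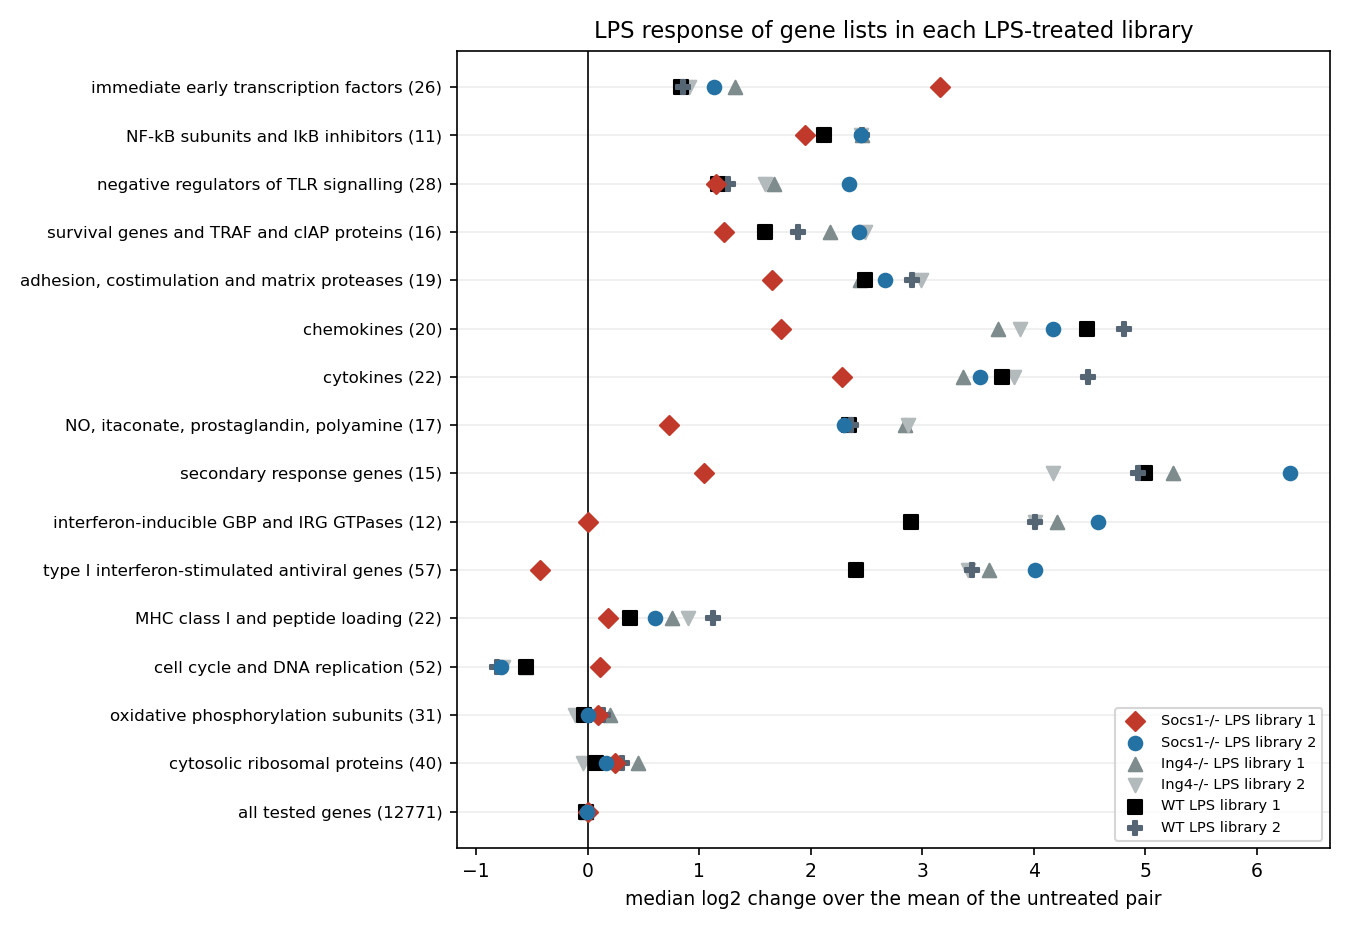
Median log2 change over the untreated mean (x axis) of 15 gene lists and of all tested genes (rows, gene numbers in brackets) in each LPS-treated library. Library 1 (red diamonds) lies right of the other libraries for immediate early genes. It lies left of them for all other lists from NF-kB subunits to MHC class I. The gap is small for negative regulators of TLR signalling (1.15, with WT LPS library 1 at 1.17). Library 1 lies at 0.11 for cell cycle genes, where the others lie between -0.82 and -0.55.

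Cell cycle genes fell less in library 1 than in library 2. Of 52 such genes, 1 fell in library 1 and 24 in library 2, against 0.407% and 7.16% of all tested genes. Compared directly, 17 were higher in library 1, against 3.20% of all tested genes (medians 0.11 and -0.78). Tk1, which makes thymidine monophosphate for DNA synthesis, was at 119 CPM in library 1 and 30.1 CPM in library 2, against 154 and 163 CPM untreated. Cdc6, which loads the replicative helicase, was at 40.2 and 14.3 CPM, against 58.8 and 68.6 CPM. Both were below the untreated pair in library 1 without passing (edgeR adjusted p = 0.541 and 0.193). E2f2, an S-phase transcription factor and the 1 member that fell in library 1, was at 21.6 CPM in library 1 and 3.32 CPM in library 2, against 54.4 and 47.9 CPM. Klhl6, a ubiquitin ligase adaptor, fell in library 2 and was not called in library 1: it was at 46.9 and 1.07 CPM, against 74.9 and 49.2 CPM. Txnip, a thioredoxin-binding protein, went further down in library 1: it was at 27.5 CPM in library 1 and 135.5 CPM in library 2, against 347 and 390 CPM, a difference of -2.30 ± 0.45 (edgeR adjusted p = 0.0209). Among housekeeping lists, 0 of 31 oxidative phosphorylation and 0 of 40 ribosomal protein genes were called in either library by edgeR, at an unadjusted p below 0.05 too. All 40 ribosomal protein genes were above the untreated mean in library 1 and 39 in library 2, with medians of 0.24 and 0.16.

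Set directly against the WT response, a comparison added after the data were seen, the library 1 change was above the WT change for 8 genes and below it for 23 (0.0626% and 0.180% of all tested). Of the 8, 2 were raised in WT, 4 lowered and 2 not called, and all 23 were raised in WT. Arc (5.28 ± 0.41), Errfi1 (3.39 ± 0.36) and Maff (3.05 ± 0.39) were among the 8 (log2 difference ± SE; edgeR adjusted p = 0.00256, 0.0172 and 0.0224). Stat2 (-4.24 ± 0.62), Trim21 (-4.15 ± 0.43) and Ripk2 (-2.68 ± 0.31) were among the 23 (edgeR adjusted p = 0.0441, 0.0172 and 0.0188). The 23 held 7 of the 57 type I interferon-stimulated genes, against 0.180% of all tested genes, and the rest of that list was not called. Of the 26 listed immediate early transcription factors, 1 (Maff) was called above WT and 0 below, against 0.0626% and 0.180% of all tested genes. For library 2, edgeR called 0 genes either way (0%), with 123 above and 123 below WT at an unadjusted p under 0.05 and a smallest adjusted p of 0.945; other tools were not run on this contrast. This does not show that the library 2 and WT responses were alike.

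The promoters and lengths of the kept and lost genes, which the choice of genes did not use, were also described. Shares are of genes with a promoter in the RefSeq table, and a gene counted if any of its promoters held the motif. Genes with several starts thus had more chances to match. The interferon-stimulated response element, on either strand, was in 3.99% of all such genes and in 10.7% of those raised in WT. It was in 17.6% of the 301 WT-raised genes that were lower in library 1 than in library 2. Of the 24 genes that rose in library 1 and were higher there, 17 had a promoter and 0 of these held it. Between kept and lost genes it differed little, with 9.73% of the WT-raised genes past 2-fold in library 1 and 11.1% of those that were not. The NF-kB motif was in 1.63% of all genes, in 4.86% of the WT-raised genes past 2-fold in library 1 and in 3.02% of those that were not. It was in 3.65% of the WT-raised genes lower in library 1 than in library 2, and in 0 of the 17. The CArG box, added after the data were seen, was in 2 of those 17 genes (11.8%), against 1.81% of all. Spans were shorter for the kept genes: WT-raised genes past 2-fold in library 1 had a median span of 12.9 kb (quartiles 5.39 and 28.8), those not past it 27.0 kb (10.3 and 60.3), and all tested genes 19.5 kb (GENCODE M21, GRCm38). These are descriptions without a test, and a match is not a shown binding site.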

How the data were processed

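RNA of RAW264.7 cells was sequenced in 12 libraries as single reads of 75 bases. The authors deposited 1 table of raw counts, whole numbers for each Ensembl gene identifier. HISAT, HTSeq, StringTie, FastQC and DESeq2 are listed in the submitters' processing notes, without versions. The notes name the build GRCh38 although every gene identifier is mouse, and a treatment protocol names HEK293T although the samples are labelled RAW264.7. The columns carry a knockout number, so genotype came from the sample title. Libraries held 17250815 to 24377950 counts, and 3 counts correspond to 0.123 to 0.174 CPM; folds from a count of 0 use a floor of 3 counts, and all intervals cover counting error only.

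Genes were filtered with filterByExpr (12771 kept) and scaled by TMM, and tested in R 4.3.3 with robust quasi-likelihood F-tests of edgeR 4.0.16, with Benjamini-Hochberg adjustment over the whole table and a threshold of 0.05. Fits had 6 means (1 per group), 7 means (each LPS-treated Socs1-/- library apart, spread from the other 5 groups) and 4 means over the 8 libraries without Socs1-/- cells. Changes of single libraries are log2((CPM + 0.5)/(untreated mean CPM + 0.5)), which understates the change of low genes. Library 1 and library 2 share the untreated pair, so their changes were set side by side and compared only by the direct contrast. The named genes are Socs1 and 8 anchors, the 8 largest called rises and falls (at least 2 CPM in the higher group) in each library and between them, and, from each gene list, up to 4 members called between the libraries and up to 3 called in both with the smallest difference: 140 genes, of which the text prints a part. Genes named outside this rule are marked where they are described. The parts studied, gene lists and named genes were chosen with earlier results of these data known. The scripts were tested on simulated data. Alternatives were RLE and upper-quartile scaling, other filters, DESeq2 1.42.0, limma-voom (limma 3.58.1), a replicate block, other thresholds, leaving out each library, and calling the WT genes anew from other libraries. The deposited tables of changed genes were not used here. Some results are not reported here.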

Additional observations from a re-analysis of the deposited data

Results flagged for a closer look

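Egr3, an immediate-early transcription factor, was above the untreated mean in both Socs1-/- LPS libraries and below it in both WT LPS libraries. Its log2 change was 5.63 in library 1 and 0.0538 in library 2 of the Socs1-/- cells, and -1 and -1.49 in the WT libraries. The change in library 2 was close to 0, and its level there lay inside the untreated pair. The difference between the genotypes was not tested in this form. No other named gene had both libraries of each genotype on opposite sides. Groups of 2 libraries are too small for a check of single outlying libraries.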

How the results depend on the processing

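The directions of all 209 named gene results stayed the same in all 3522 recomputed values. Of these, 285 lost their call and 10 gained one. Counts are given as up and down. At an adjusted p of 0.01 the group of both libraries had 78 and 14 calls, library 1 103 and 10, library 2 588 and 307, library 1 against library 2 39 and 100, and WT 569 and 305. Without a filter the group had 995 and 467, library 1 497 and 448, library 2 1471 down, and library 1 against library 2 1037 and 1043. DESeq2 gave 611 and 231 for the group, 321 and 198 for library 1, and 722 and 837 between the libraries. Upper-quartile scaling gave 91 down for the group and 1374 down for library 2. A fit to the Socs1-/- libraries only gave 0 and 0. The cause was not tested for any of these.

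Replicates 1 minus 2 correlated at 0.565 between LPS-treated and untreated Socs1-/- cells (0.601 in Ing4-/- and 0.447 in WT cells), but each group holds only 2 numbers and no label ties equal numbers to a shared origin. With the replicate block the group had 203 and 58 calls and WT 1400 and 1332, with a block nested in genotype the group had 561 and 208, and over the same-numbered untreated library 226 genes were past 2-fold down in library 1.

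At 3-fold, genes raised and lowered in WT numbered 167 and 37 in library 1, 538 and 265 in library 2, 511 and 269 in Ing4-/- library 1, and 163 lowered in Ing4-/- library 2. Among all genes, 237 were up and 145 down in library 1, and 646 up and 400 down in library 2. With WT genes at an adjusted p of 0.01, 52 lowered genes were past 2-fold in library 1, 526 raised and 268 lowered in library 2, and 272 and 260 lowered in the Ing4-/- pair. A pseudocount of 0.1 or 2 CPM gave 795 or 247 genes down in library 1.

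Leaving out 1 library at a time, the group had 42 to 1197 rises and 7 to 893 falls, each highest without library 1 and lowest without untreated replicate 2. Without Socs1-/- untreated replicate 1 they were 46 and 18, without a WT library 129 to 133 and 23 to 26, and without an untreated Ing4-/- library the falls were 27. Library 1 had 118 to 208 rises and 14 to 151 falls, library 2 712 to 1213 and 514 to 957, library 1 against library 2 236 to 511 and 328 to 666, and WT 489 to 1122 and 276 to 943. Past 2-fold, library 1 had 434 to 648 genes up and 226 to 790 down, 261 to 272 of the genes raised and 91 to 133 of those lowered in WT. Library 2 had 1096 to 1415 up, 993 to 1256 down, 795 to 816 raised and 507 to 529 lowered. The Ing4-/- libraries had 775 to 798 and 768 to 780 raised, and 511 to 538 and 438 to 446 lowered. With the WT genes called anew without each WT or Ing4-/- library, an alternative chosen after seeing the data, the shares of raised and lowered genes past 2-fold were 24.3% to 37.2% and 13.2% to 19.6% in library 1, 74.6% to 93.1% and 61.5% to 89.9% in library 2, 72.8% to 95.7% and 62.9% to 91.7% in Ing4-/- library 1, and 72.4% to 93.3% and 49.6% to 86.6% in Ing4-/- library 2. Called from the WT libraries only, raised genes were past 2-fold in 71.5% in library 2 and in 69.0% and 70.7% in the Ing4-/- pair. Changes of genes under the floor were not detectable at this depth.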

Other observations

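Of 24 cholesterol synthesis genes, 3 rose in library 1 and 1 in library 2, against 1.57% and 9.33% of all tested genes. Compared directly, 0 of the 24 were higher and 0 lower in library 1 than in library 2 by edgeR. Hmgcs1, an enzyme early in the pathway, was at 467.7 CPM in library 1 and 170.3 CPM in library 2, against 90.8 and 117 CPM untreated, and Insig1, which retains the SREBP escort protein, at 316 and 112 CPM, against 47.8 and 65.1 CPM. Hmgcs1 and Insig1, like Btg2, Mdm2, Cd83 and Itga5 below, were chosen after their values were seen. The difference between the libraries did not pass for Hmgcs1 or Insig1 (edgeR adjusted p = 0.0702 and 0.105). Of 23 p53 targets, 4 rose and 0 fell in library 1 (1.57% and 0.407% of all genes), 6 rose and 2 fell in library 2 (9.33% and 7.16%), and 2 were higher and 2 lower in library 1 than in library 2. The 4 include Btg2, an antiproliferative factor, at 346 CPM in library 1 and 47.6 CPM in library 2, against 10.5 and 31.0 CPM, and Mdm2, the p53 ligase, at 425 and 173 CPM, against 99.9 and 123 CPM.

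Of 19 adhesion, costimulation and protease genes, 8 rose in library 1 and 13 in library 2 (medians 1.65 and 2.67). Compared directly, 0 of the 19 were higher in library 1 than in library 2 and 2 were lower (Cd69 and Cd80). The genes printed next stood higher in library 1 and do not stand for the list. Cd83, a marker of activated antigen-presenting cells, was at 1153 CPM in library 1 and 399.7 CPM in library 2, against 47.3 and 35.6 CPM. Itga5, a fibronectin receptor subunit, was at 2303 and 829.9 CPM, against 256 and 127 CPM. Sele (E-selectin), best known from endothelium, had 471 counts in library 1 and 21 counts in library 2, against 0 counts untreated. With a floor of 3 counts set for the untreated pair this is 276-fold and 17.0-fold, without counting error of the treated library. LPS-treated WT cells had 0.860 and 0.203 CPM of Sele.

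In the TLR pathway, 1 of 33 genes rose in library 1 and 15 in library 2, against 1.57% and 9.33% of all tested genes. The count in library 1 does not set the list apart from all genes. The riser was Ticam1, which encodes the adaptor TRIF, at 103 CPM in library 1 and 97.1 CPM in library 2, against 18.5 and 28.8 CPM. Ripk2, the kinase of the NOD receptors, was at 29.3 and 270.7 CPM, against 21.6 and 21.95 CPM, and Tlr1 at 18.9 and 124.5 CPM, against 21.2 and 32.9 CPM. Among the genes that fell in library 1 was Cbx2, a Polycomb subunit, at 1.92 CPM in library 1 and 0.675 CPM in library 2, against 9.67 and 12.6 CPM, and Rab3a, a vesicle GTPase, at 0.408 and 0.562 CPM, against 4.94 and 5.43 CPM.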
